A study of Mus musculus with 16 samples.

Results

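The 10 genes described here encode the light chains of the sarcomeric myosins, the myosin binding proteins and the muscle myosin light chain kinases. They are Mylpf, Myl2, Myl1, Myl3, Myl4, Mybpc1, Mybpc2, Mybph, Mylk2 and Mylk4, and they were taken by symbol from the 29730 genes of the count table. All 10 were found once and all passed the filter on low counts. Transcripts were sequenced from the tibialis anterior, the shin muscle that lifts the foot, of 16 C57BL/6N males aged 7 weeks. Wild-type mice received either phosphate-buffered saline (WT_PBS) or the antisense oligonucleotide ASO1 (WT_ASO), and so did Bin1mck-/- mice (KO_PBS and KO_ASO), with 4 mice in each of the 4 groups. The series title names Dnm2 as the transcript the oligonucleotide targets. The sources used here did not state the dose, the schedule, the deleted part of Bin1 or what drove the deletion.

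In the thick filament, every myosin heavy chain carries an essential and a regulatory light chain on the neck between its motor and its tail. Fast skeletal fibres use Mylpf as the regulatory and Myl1 as the essential light chain, slow fibres and the ventricle use Myl2 and Myl3, and Myl4 is the essential light chain of embryonic skeletal muscle and the atrium. Mybpc1 (slow type) and Mybpc2 (fast type) are the skeletal myosin binding proteins C, which link the thick filament to actin and tune the cross-bridges, and Mybph is the smaller myosin binding protein H. Mylk2 is the calmodulin-dependent kinase that phosphorylates the regulatory light chain in skeletal muscle, and Mylk4 is a less studied kinase of the same family.

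The libraries held between 27591900 and 40862854 counts. Bin1 averaged 494.7 CPM (counts scaled to library size, with TMM factors) in WT_PBS and 44.9 CPM in KO_PBS, and Dnm2 had a log2FC of -1.34 in KO_ASO vs KO_PBS and of -1.13 in WT_ASO vs WT_PBS, so both targeted genes followed the labels. The 7 skeletal muscle markers summed to 134865 to 170297 CPM in WT_PBS, 102137 to 120291 CPM in KO_PBS and 119851 to 140794 CPM in KO_ASO. Of these markers, the intermediate filament gene Des was higher in KO_PBS than in WT_PBS (log2FC 0.75, edgeR adjusted P = 0.000118), Tnnt3 was lower, and the other 5 were not called by edgeR. The 5 macrophage markers summed to 17.1 to 33.9 CPM in WT_PBS, 54.5 to 119.9 CPM in KO_PBS and 19.9 to 35.4 CPM in KO_ASO, and all 5 were higher in KO_PBS than in WT_PBS. Of the fibroblast markers 2 of 4 were higher in KO_PBS (967.3 to 1690.8 CPM summed against 726.1 to 989.9 CPM), of the smooth muscle markers 2 of 5 were lower, and of the satellite cell and myoblast markers Myog was higher while Pax7 and Myf5 were lower. In KO_PBS vs WT_PBS the calls of Pdgfra and Dcn (fibroblast), Myh11 and Tagln (smooth muscle), Myf5 and Mrc1 (macrophage) were fragile. Each was lost in 5 of 8 edgeR fits that left out 1 library, among them the fit without KO_PBS replicate 1. None of the 3 endothelial, 3 Schwann cell or 2 tested heart markers was called in that comparison by edgeR, DESeq2 or limma-voom, and none had an unadjusted edgeR P under 0.05. No marker was at 0 in all 16 libraries, but of the heart markers Nppb was at 0 in all WT_ASO and KO_ASO libraries and Myl7 in all WT_ASO libraries.

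Start-site windows of 250 bases are shown for the 3 genes that differed between the genotypes and had one in RefSeq (build GRCm38.p6), 5′ to 3′ on the strand of the gene. Capitals mark matches, searched on both strands, to any of 5 motifs. The E-box, CANNTG, is the site of the myogenic factors. The MCAT element was searched as CATTCC. The TATA box was searched as TATAAA. The MEF2 site and the CArG box were the others. The Mybph window is chr1:134193198-134193447 (plus strand), the Myl4 window chr11:104550413-104550662 (plus strand) and the Mylk4 window chr13:32783965-32784214 (minus strand).
Mybph: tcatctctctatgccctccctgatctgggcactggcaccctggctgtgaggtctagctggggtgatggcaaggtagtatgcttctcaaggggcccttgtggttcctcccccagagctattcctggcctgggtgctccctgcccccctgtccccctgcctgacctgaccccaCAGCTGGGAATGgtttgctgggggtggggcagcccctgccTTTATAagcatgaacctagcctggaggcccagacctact
Myl4: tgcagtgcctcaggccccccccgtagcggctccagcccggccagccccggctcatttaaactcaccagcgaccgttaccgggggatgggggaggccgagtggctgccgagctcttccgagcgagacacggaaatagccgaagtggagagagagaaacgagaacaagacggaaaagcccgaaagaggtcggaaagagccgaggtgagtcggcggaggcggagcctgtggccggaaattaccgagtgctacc
Mylk4: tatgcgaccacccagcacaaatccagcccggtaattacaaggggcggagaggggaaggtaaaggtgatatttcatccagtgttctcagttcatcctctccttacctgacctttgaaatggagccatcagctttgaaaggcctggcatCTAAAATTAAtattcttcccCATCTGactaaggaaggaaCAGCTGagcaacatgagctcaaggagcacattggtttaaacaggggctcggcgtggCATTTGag
In the Mybph window an E-box 79 to 74 bases before the start was followed directly, with no shared base, by an MCAT element on the other strand at 73 to 68 bases, and a TATA box on the other strand lay at 39 to 34 bases. The Mylk4 window held 3 E-boxes and a MEF2 site at 103 to 94 bases, and the Myl4 window held none of these letters. Over all 32851 windows, 66.2% held an E-box, 12.6% an MCAT element, 12.4% a TATA box, 2.9% a MEF2 site and 1.5% a CArG box. Among the 10 windows found for 9 of the 10 genes, 9 held an E-box, 4 an MCAT element, 3 a TATA box, 1 a MEF2 site and 1 a CArG box. These matches describe letters in a window and are not evidence of binding.

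Per transcript length, the fast isoforms made up most of the light chain and binding protein RNA of this muscle. In WT_PBS the mean level was 24754 TPM (the share of a library's counts per kilobase of merged exons) for Mylpf, 5662 for Myl1, 4257 for Mybpc2, 1858 for Mybpc1, 1269 for Mylk2, 923 for Mylk4, 155 for Myl3, 58.5 for Mybph, 9.35 for Myl2 and 3.15 for Myl4. The ranges over the 4 libraries overlapped between Myl1 and Mybpc2, between Mylk2 and Mylk4, between Myl3 and Mybph and between Myl2 and Myl4, so the order within these pairs was not resolved. Mylpf stood 9th among all 29730 genes by mean TPM in WT_PBS. The order was kept in KO_PBS except for Mybph, which at 692 TPM lay between Mylk2 and Mylk4 by its mean, with a range that overlapped both. The KO_PBS ranges also overlapped between Myl1 and Mybpc2, Mybpc2 and Mybpc1, Myl3 and Myl2, and Myl2 and Myl4. The rank of Mybph among all genes went from 1227 in WT_PBS to 114 in KO_PBS and 286 in KO_ASO.

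Across KO_PBS vs WT_PBS, which asks how untreated muscle of the Bin1mck-/- line differs from wild type, 4 of the 10 were DEGs at an adjusted P value under 0.05 in edgeR (Benjamini-Hochberg over all genes tested). Mybph and Myl4 were higher, and Mylk2 and Mylk4 were lower. Over all 14960 genes tested 12.6% were called, and the median log2FC was -0.21 for the 10 genes and -0.011 for all genes. In bulk muscle RNA, fewer cells of a type and less RNA per cell cannot be told apart. The part that the macrophage, fibroblast and myoblast markers above played in these differences was not tested.

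**Figure D1:**
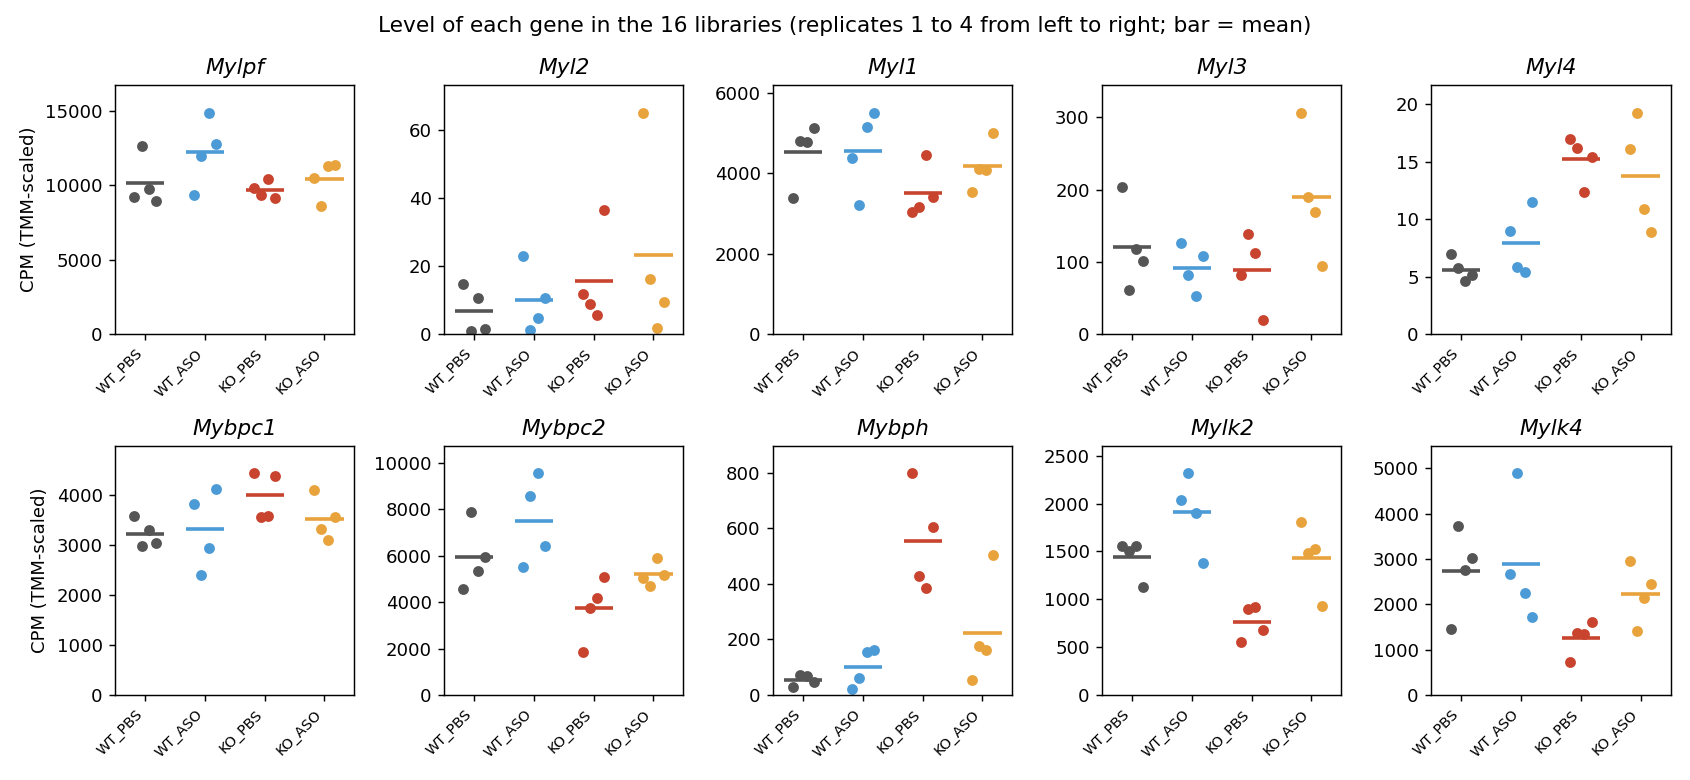
Level of each gene (CPM on TMM-scaled libraries, linear axis from 0) in the 16 libraries, with 1 point per mouse and a bar at the group mean. Mybph and Myl4 are higher and Mylk2 is lower in every KO_PBS library than in any WT_PBS library, with Mybph averaging 552.8 against 52.6 CPM.

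The regulatory light chains showed no DEG. Mylpf was measured at 9173, 12627, 9750 and 8933 CPM in WT_PBS and at 9824, 9354, 10391 and 9152 CPM in KO_PBS. The KO_PBS values lay inside the WT_PBS range, and the log2FC was -0.06 (± 0.14 SE, adjusted P = 0.817 by edgeR). With library totals in place of TMM the Mylpf difference turned to 0.091, while the median of all genes moved to 0.14. In the same scaling the remaining genes kept their sign in this comparison.

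Myl2, the slow regulatory light chain, was the least steady of the 10 genes between mice of a group, with a coefficient of variation of 89.4% in KO_PBS and 123% in KO_ASO. It was measured at 14.6, 1.04, 10.5 and 1.53 CPM in WT_PBS, at 11.9, 8.73, 5.73 and 36.4 CPM in KO_PBS and at 65.1, 16.1, 1.94 and 9.51 CPM in KO_ASO. The groups overlapped, and the log2FC of KO_PBS vs WT_PBS was 1.18 (± 1.08 SE, adjusted P = 0.530 by edgeR). Without KO_PBS replicate 4 it was 0.34, and without WT_PBS replicate 1 it was 1.83. The lowest share of Mylpf in the regulatory light chain RNA per exon length was 99.663%, in KO_ASO replicate 1.

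Of the essential light chains, Myl4 (chr11:104550663-104595753, plus strand, GRCm38) was the one DEG. It was measured at 6.96, 5.74, 4.59 and 5.17 CPM in WT_PBS, at 17.0, 16.2, 12.4 and 15.4 CPM in KO_PBS, at 16.1, 19.3, 10.9 and 8.88 CPM in KO_ASO and at 8.93, 5.84, 5.43 and 11.5 CPM in WT_ASO. Every KO_PBS library lay above every WT_PBS library, and the log2FC was 1.44 (± 0.26 SE, adjusted P = 0.00187 by edgeR), a 2.72-fold higher level. The level stayed low beside the fast isoform, since Myl4 was 0.0564% ± 0.0207 (SD, n = 4) of essential light chain RNA per exon length in WT_PBS and 0.196% ± 0.0531 (SD, n = 4) in KO_PBS. The genes Gm22000 and Gm11665 on the opposite strand averaged 15.1 and 13.4 counts against 370.6 for Myl4, and the strand setting of the counting was not stated.

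Myl1, the fast essential light chain, made up 97.1% of the class in WT_PBS and 97.3% in KO_PBS. Its level was 4520 CPM ± 770 in WT_PBS and 3509 CPM ± 645 in KO_PBS (SD, n = 4 each), with overlapping ranges and a log2FC of -0.37 (± 0.18 SE, adjusted P = 0.192 by edgeR). Myl3, the slow essential light chain, was measured at 203.2, 61.3, 117.2 and 100.7 CPM in WT_PBS and at 82.0, 139.1, 112.1 and 20.2 CPM in KO_PBS. The ranges overlapped, with a log2FC of -0.45 (± 0.52 SE, adjusted P = 0.627 by edgeR).

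The binding proteins held the largest difference among the 10 genes in this comparison. Mybph (chr1:134193448-134201232, plus strand, GRCm38) was measured at 27.7, 71.0, 66.1 and 45.6 CPM in WT_PBS and at 797.4, 427.0, 383.3 and 603.5 CPM in KO_PBS. The lowest KO_PBS library was far above the highest WT_PBS library, and the log2FC was 3.39 (± 0.70 SE, adjusted P = 0.00659 by edgeR), a 10.5-fold higher level. Adora1 on the opposite strand shares 1162 exonic bases with Mybph but averaged 14.6 counts against 8228 for Mybph.

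Mybpc2, the fast binding protein C, was measured at 4547, 7871, 5358 and 5936 CPM in WT_PBS and at 1867, 3766, 4196 and 5107 CPM in KO_PBS. Only replicate 4 of KO_PBS reached into the WT_PBS range. The log2FC was -0.67 (SE 0.25) and missed the threshold in edgeR (adjusted P = 0.0943), whereas the adjusted P value was 0.0466 with DESeq2 and 0.0301 with limma-voom. Mybpc1, the slow binding protein C, averaged 3227 CPM in WT_PBS and 3993 CPM in KO_PBS, with a log2FC of 0.31 (± 0.15 SE, adjusted P = 0.202 by edgeR) and overlapping ranges.

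Set beside each other per exon length, the 3 binding proteins made up other proportions in KO_PBS than in WT_PBS. Mybph was 0.936% ± 0.297 of the class in WT_PBS and 11.3% ± 4.94 in KO_PBS (SD, n = 4 each), with a range of 7.77% to 18.6% in the latter. Mybpc2 was 68.4% ± 6.35 in WT_PBS and 47.1% ± 12.7 in KO_PBS, and Mybpc1 was 30.7% ± 6.49 and 41.6% ± 7.83. KO_PBS replicate 1 stood at one end of each range, with the highest Mybph and Mybpc1 shares and the lowest Mybpc2 share (28.1%). Shares within a class are not independent of each other and were not tested.

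**Figure D2:**
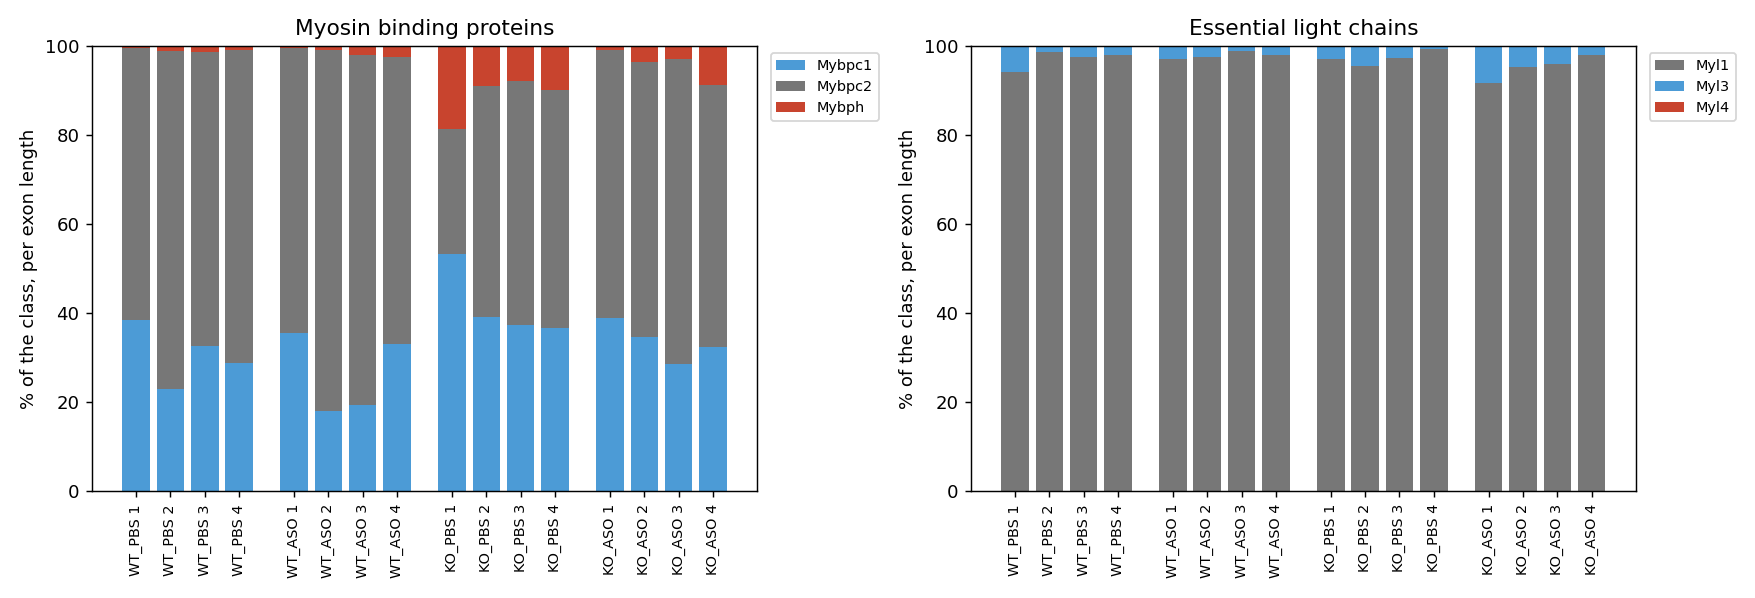
Share of each gene in the RNA of its class (percent of the class total, counts per kilobase of merged exons) in each of the 16 libraries, for the binding proteins on the left and the essential light chains on the right. The Mybph share is 7.77% to 18.6% in KO_PBS and at most 1.27% in WT_PBS, while Myl1 holds at least 91.7% of the essential light chains throughout and Myl4 is too small a share to be seen.

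Both kinases were lower in KO_PBS. Mylk2 (chr2:152911352-152923068, plus strand, GRCm38) was measured at 1561, 1502, 1561 and 1129.6 CPM in WT_PBS and at 554.8, 895.2, 916.5 and 681.1 CPM in KO_PBS. Every KO_PBS library lay below every WT_PBS library, and the log2FC was -0.92 (± 0.21 SE, adjusted P = 0.00892 by edgeR), which put KO_PBS at 53.0% of the WT_PBS level. Mylk4 (chr13:32700834-32783954, minus strand, GRCm38) was measured at 1451, 3727, 2759 and 3027 CPM in WT_PBS and at 723.5, 1371, 1353 and 1599.5 CPM in KO_PBS. WT_PBS replicate 1 lay within the KO_PBS range, and the log2FC was -1.12 (± 0.35 SE, adjusted P = 0.0471 by edgeR). The Mylk4 difference was no longer a DEG in 10 of 15 other settings, with an adjusted P value of up to 0.142 when KO_PBS replicate 1 was left out, whereas Mylk2, Myl4 and Mybph remained DEGs in all 15. Mylk2 held 58.5% of the RNA of both kinases per exon length in WT_PBS and 61.5% in KO_PBS.

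The 4 KO_PBS mice did not carry these differences to the same extent. Replicate 1 had the highest Myl4, Mybpc1 and Mybph and the lowest Myl1, Mybpc2, Mylk2 and Mylk4 of its group. In that library the fast heavy chain Myh4 stood at 10248 CPM against 25579 to 32075 CPM in the other KO_PBS libraries. The slow troponin I gene Tnni1 stood at 45.3 CPM there against 12.2 to 24.6 CPM. The fast heavy chains Myh1 (27388 CPM) and Myh2 (3679 CPM) were instead at their highest of the group in replicate 1. The slow heavy chain Myh7, at 3.97 CPM in replicate 1, lay within the range of the other KO_PBS libraries. Without replicate 1 the log2FC of KO_PBS vs WT_PBS was 3.16 for Mybph, 1.39 for Myl4 and -0.79 for Mylk2.

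**Figure D3:**
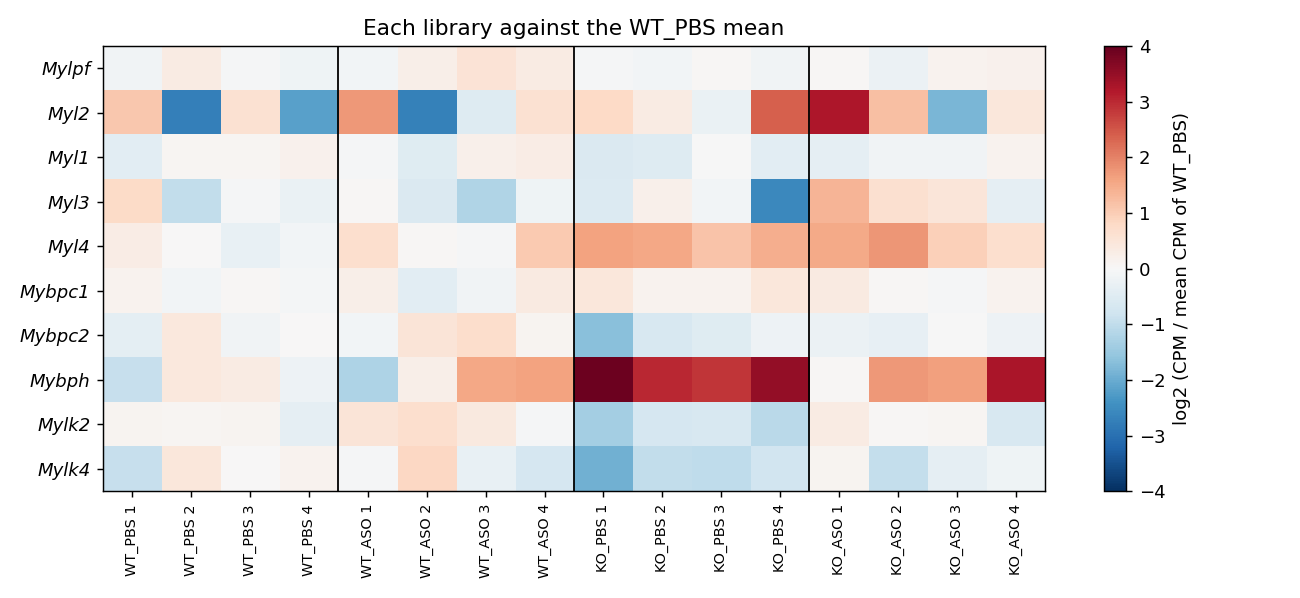
Log2 ratio of each library's CPM to the mean CPM of WT_PBS for the 10 genes (rows) in the 16 libraries (columns, with lines between groups), red above and blue below the WT_PBS mean. Mybph reaches 3.92 in KO_PBS replicate 1, Mylk4 reaches -1.92 in the same library, and Myl2 ranges from -2.73 to 3.23 without following the groups.

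Related genes outside the 10 were read from the same KO_PBS vs WT_PBS comparison. Of 7 other myosin light chains, 6 were tested and edgeR called 1, the cytoplasmic regulatory chain Myl12a, which was higher (log2FC 0.77). DESeq2 called Myl6b (edgeR log2FC 0.79) and Myl9 (-0.30) as well, and limma-voom called Myl12a alone. Of 6 other myosin binding proteins and M-band proteins, 4 were tested and edgeR called 1, the M-band protein Myom3, which was higher (log2FC 2.56, SE 0.76, edgeR adjusted P = 0.0424). The groups overlapped for Myom3, at 532.1, 197.7, 83.9 and 212.8 CPM in KO_PBS against 11.1 to 90.5 CPM in WT_PBS. Its log2FC was 1.92 without KO_PBS replicate 1 (edgeR adjusted P = 0.151) and 3.19 without WT_PBS replicate 1, and the call was lost in 6 of 8 fits that left out 1 library. DESeq2 and limma-voom also called the M-band protein Myom1, for which the edgeR log2FC was -0.26 and the groups did not overlap. Among the light chain kinases, phosphatase subunits and calmodulins, the calmodulin gene Calm3 was lower by edgeR (log2FC -0.84). Of the 8 sarcomeric heavy chains, the perinatal Myh8 was higher (log2FC 0.97), whereas the fast Myh4 (log2FC -0.71, SE 0.27, adjusted P = 0.101) and the slow Myh7 (log2FC 1.33, SE 1.14, adjusted P = 0.498) missed the threshold in edgeR. Myh4 was called by DESeq2 and by limma-voom.

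Among slow and fast fibre genes outside the 10, the genes called by edgeR were higher for the slow list and lower for the fast list. Of 10 slow fibre genes 3 were higher and none was lower, namely Tnni1 (log2FC 3.10), the muscle LIM protein gene Csrp3 (2.77) and the slow calcium pump gene Atp2a2 (0.76), with a list median of 1.41. Csrp3 was measured at 1249 CPM in KO_PBS replicate 1 against 285.6 to 534.1 CPM in the other 3, and without that library its log2FC was 2.13 and no longer passed (edgeR adjusted P = 0.113). Its call was lost in 4 of 8 fits that left out 1 library, the others being those without WT_PBS replicate 1, 2 or 4. Of 12 fast fibre genes 7 were lower and none was higher, among them the tropomyosin gene Tpm1 (log2FC -0.61) and the fast troponin genes Tnnt3 (-0.40) and Tnni2 (-0.37), with a list median of -0.42. Without KO_PBS replicate 1, where edgeR called 1005 of all genes, Tnni2, Tnnc2, Atp2a1, Pvalb and Myoz1 lost the call. Tnnt3 and Tpm1 kept it in all 8 fits that left out 1 library. The fast heavy chain genes Myh1 and Myh2 had positive values (log2FC 0.35 and 0.48) and were not called by edgeR, DESeq2 or limma-voom. DESeq2 and limma-voom called 5 slow genes each and 9 and 10 fast genes. Beside these, the members slow by name (Myl2, Myl3, Mybpc1) and fast by name (Mylpf, Myl1, Mybpc2) held no DEG in edgeR. Mybpc2 was called by DESeq2 and limma-voom, as given above, and Myl3 had a negative log2FC. Mybpc1 averaged 1858 TPM in WT_PBS against 155 for Myl3 and 9.35 for Myl2, and which fibres expressed it was not tested.

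KO_ASO vs KO_PBS addresses what the oligonucleotide did in the mutant, and it shares the KO_PBS mice with the comparison above. Mylk2 was the one DEG among the 10 genes, in a comparison in which 3.64% of the 14960 genes were called and the median log2FC was 0.37 for the 10 genes and 0.010 for all. Mylk2 was measured at 1804, 1485, 1525 and 929.0 CPM in KO_ASO, against 554.8 to 916.5 CPM in KO_PBS. Every KO_ASO library lay above every KO_PBS library, replicate 4 by a small margin, and the log2FC was 0.91 (± 0.21 SE, adjusted P = 0.0240 by edgeR). By exact permutation (two-sided) P was 0.0286, the lowest that 4 against 4 samples allow. The call was lost in 7 of 15 other settings, with an adjusted P value of up to 0.0946 when KO_PBS replicate 1 was left out.

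Mybph was measured at 54.3, 174.8, 163.0 and 502.6 CPM in KO_ASO. Replicates 1 to 3 lay below the KO_PBS range and replicate 4 lay within it, and with a log2FC of -1.31 (± 0.64 SE, adjusted P = 0.315 by edgeR) the difference was not beyond the spread between mice. Without KO_ASO replicate 4 the log2FC was -2.08, still not a DEG. Mylk4, at 2956, 1416, 2132 and 2441 CPM in KO_ASO, had a log2FC of 0.83 (± 0.35 SE, adjusted P = 0.218 by edgeR), with replicate 2 inside the KO_PBS range. Mybpc2 had a log2FC of 0.48 (± 0.25 SE, adjusted P = 0.338 by edgeR) and Myl3 one of 1.104 (± 0.52 SE, adjusted P = 0.292 by edgeR).

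Myl4 stood at nearly the same level in both mutant groups, 15.2 CPM ± 2.03 in KO_PBS and 13.8 CPM ± 4.76 in KO_ASO (SD, n = 4 each), and its log2FC was -0.14 (± 0.25 SE, adjusted P = 0.842 by edgeR). For Mylpf, Myl1, Mybpc1 and Myl2 the log2FC was 0.11, 0.25, -0.18 and 0.57, and none of them passed the test. As a share of the binding proteins per exon length, Mybph was 4.09% ± 3.37 (SD, n = 4) in KO_ASO, with a highest value of 8.87%, and Mybpc2 was 62.3%. In the first of the KO_ASO libraries, which had the lowest Mybph and Myl1 and the highest Myl2, Myl3, Mybpc1, Mylk2 and Mylk4 of its group, the slow heavy chain Myh7 stood at 108.9 CPM against 2.18 to 4.99 CPM in the other 3.

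**Figure D4:**
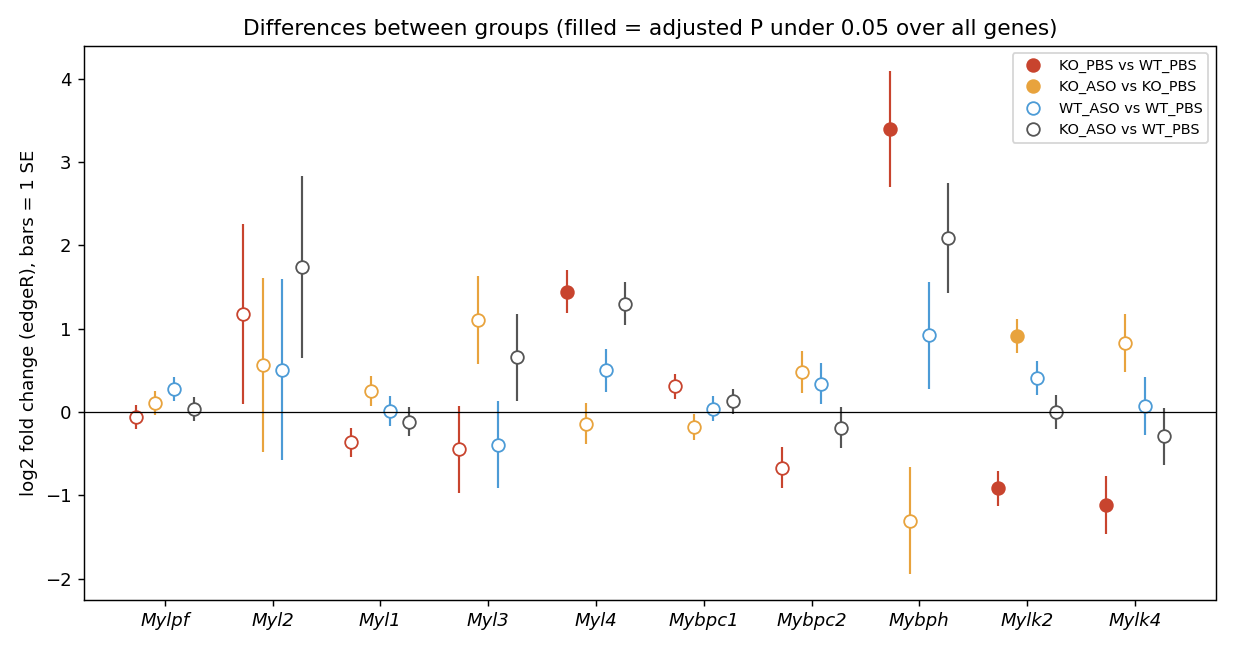
Log2FC with 1 SE for each of the 10 genes in 4 comparisons of 4 against 4 mice, with filled points where the edgeR adjusted P value is under 0.05. Mybph (3.39), Myl4 (1.44), Mylk2 (-0.92) and Mylk4 (-1.12) are filled for KO_PBS vs WT_PBS, and only Mylk2 (0.91) is filled for KO_ASO vs KO_PBS.

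Among the lists in KO_ASO vs KO_PBS, 0 of 6 other light chains, 0 of 4 other binding and M-band proteins and 0 of 10 slow fibre genes were called by edgeR, with 2, 0 and 0 of them at an unadjusted P under 0.05. DESeq2 and limma-voom each called 1 of the 6 other light chains, Myl6, and 0 in the other two lists. By edgeR, Calm3 was higher (log2FC 0.55, adjusted P = 0.0396) and Myh8 was lower (log2FC -0.93). Tpm1 was the 1 of 12 fast fibre genes called by edgeR (log2FC 0.56). DESeq2 called 3 of them, namely Tpm1, Tnnt3 (edgeR log2FC 0.27) and Myh1, which went the other way (edgeR log2FC -0.61). Of the macrophage markers, whose summed level is given above, edgeR called 3 of 5 lower and DESeq2 called all 5. The log2FC of the other two was -1.63 for Adgre1, whose groups did not overlap, and -1.01 for Mrc1. The fibroblast marker Dcn (log2FC -0.68, edgeR adjusted P = 0.0390) and the muscle marker Des (log2FC -0.60, edgeR adjusted P = 0.00303) were lower as well. The part of these markers in the Mylk2 difference was not tested.

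In wild-type muscle the oligonucleotide gave no DEG among the 10 genes. In WT_ASO vs WT_PBS edgeR called 0 of 10, with 0 at an unadjusted P under 0.05, and DESeq2 and limma-voom called 0 as well, while 0.00668% of all genes were called. The median log2FC was 0.31 for the 10 genes and 0.0040 for all. Mylk2 was measured at 2039.9, 2316, 1899.7 and 1378 CPM in WT_ASO, with a log2FC of 0.41 (± 0.21 SE, adjusted P = 0.802 by edgeR) and ranges that overlapped through replicate 4. Mybph was measured at 22.3, 61.6, 153.6 and 160.0 CPM, with a log2FC of 0.92 (± 0.64 SE, adjusted P = 0.856 by edgeR), so that replicates 3 and 4 lay above and replicate 1 below the WT_PBS range.

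Whether the oligonucleotide acted differently in the 2 genotypes was tested as an interaction. EdgeR called 0 of the 10 genes (0.575% of all genes), with 1 at an unadjusted P under 0.05, and DESeq2 and limma-voom called 0. That gene was Mybph, with an interaction of -2.22 (± 0.91 SE, adjusted P = 0.327 by edgeR), which became -3.00 without KO_ASO replicate 4. For Mylk2 the interaction was 0.51 (± 0.29 SE, adjusted P = 0.504 by edgeR), so the oligonucleotide's difference in the mutant was not shown to exceed that in the wild type.

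Compared with untreated wild-type muscle, the treated mutants held no DEG among the 10 genes in edgeR. In KO_ASO vs WT_PBS edgeR called 0 of 10 (0.0401% of all genes), with 2 at an unadjusted P under 0.05. Over all genes edgeR called 6, limma-voom 5 and DESeq2 95. Of the 10 genes limma-voom called 0 and DESeq2 called 1. The gene called by DESeq2 was Myl4, whose KO_ASO libraries all lay above the WT_PBS range and whose log2FC was 1.30 (± 0.26 SE, adjusted P = 0.103 by edgeR, and 0.0286 by the exact permutation test, two-sided). In the same comparison the myoblast marker Myog was higher by edgeR (log2FC 1.94, adjusted P = 0.0418) with groups that did not overlap, a call lost in 6 of 8 fits that left out 1 library, and DESeq2 called Myog and Pax7 (edgeR log2FC -0.82). The part of these markers in the Myl4 difference was not tested. Mybph had a log2FC of 2.09 (± 0.66 SE, adjusted P = 0.444 by edgeR), with KO_ASO replicate 1 inside the WT_PBS range, and without KO_ASO replicate 4 the log2FC was 1.31. Mylk2 averaged 1436 CPM in KO_ASO and 1438 CPM in WT_PBS, and its log2FC was -0.0026 (± 0.21 SE, adjusted P = 0.999 by edgeR).

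Between the treated groups, KO_ASO vs WT_ASO, edgeR called 0 of the 10 genes (0.0735% of all genes), with 1 at an unadjusted P under 0.05, and DESeq2 and limma-voom called 0. That gene was Myl4, with a log2FC of 0.80 (± 0.25 SE, adjusted P = 0.173 by edgeR) and overlapping ranges. The log2FC was 1.17 for Mybph, -0.53 for Mybpc2, -0.41 for Mylk2 and -0.36 for Mylk4, and none was a DEG. Without KO_ASO replicate 4 the log2FC of Mybph was 0.39. In WT_ASO vs WT_PBS, KO_ASO vs WT_PBS, KO_ASO vs WT_ASO and the interaction, edgeR called 0 genes in each of the 6 lists of related genes, with 0 to 7 genes of a list at an unadjusted P under 0.05, and limma-voom also called 0. DESeq2 called up to 5 of a list there, the 5 being fast fibre genes in KO_ASO vs WT_ASO. Over all genes in KO_ASO vs WT_ASO, DESeq2 called 422 and edgeR called 11.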

How the data were processed

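RNA was sequenced from 16 tibialis anterior samples, 4 per group, each taken as a separate mouse, so P values measure only the spread between these samples. Deposited values were whole-number counts of reads for each Ensembl gene (27591900 to 40862854 per library), which the authors had not normalized. The submitters' processing notes list STAR 2.5.3a, HTSeq 0.6.1p1, Bowtie2 2.2.8 and cutadapt 1.10 with GRCm38/mm10, without their roles, and the strand setting and Ensembl release were not stated in the sources used here.

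Symbols, positions and merged exon lengths came from GENCODE, which matched all 29730 gene IDs. Counts were filtered by group (filterByExpr, 14960 genes kept, 14770 left out), scaled by TMM and tested with edgeR 4.0.16 (R 4.3.3) by the robust quasi-likelihood F-test with 1 mean per group over all 16 samples, and P values were adjusted by Benjamini-Hochberg over all genes tested in each comparison. The 10 genes were read from that fit. Genes were called at an adjusted P value under 0.05. The SE of a log2FC was derived from the log2FC and its F statistic. A prior count of 2 entered only the log2 CPM used for the permutation test and the correlations between replicates. The fit was tested on simulated counts first. Single genes were also tested by a two-sided exact permutation test, which cannot go below 0.0286 here. TPM and class shares were computed from counts per kilobase and were not tested.

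Alternatives were RLE size factors, library totals only, no filter, the compared groups only, DESeq2 1.42.0, limma-voom (limma 3.58.1) with sample quality weights, a replicate block, and leaving out each replicate in turn. Named genes were the 10 genes, at most 3 called genes with the smallest P value from each list of related genes (other light chains, other binding and M-band proteins, kinases with phosphatase and calmodulin, heavy chains, slow fibre, fast fibre), Myh4, Myh7, Bin1 and Dnm2, and the markers of 8 cell types. The genes and lists were chosen with earlier results of these data known. Promoter windows came from RefSeq, which gave none for Mylk2. A planned comparison of protein sequences was not made. Some results of the related-gene lists are not reported here. No samples of a group agreed within sampling noise (lowest mean chi-square per gene 22.2).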

Additional observations from a re-analysis of the deposited data

Results flagged for a closer look

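Mylk2 in WT_PBS held a library apart from the rest of its group. WT_PBS replicate 4 was measured at 1129.6 CPM against 1502 to 1561 CPM in the other 3, and the gap was 0.864 of the group's whole range, above Dixon's critical value for 4 samples. It was the single such value among 40 checks of a gene in a group, of which chance gives about 1 in 20. Without this library Mylk2 in KO_PBS vs WT_PBS had a log2FC of -1.02 (edgeR adjusted P = 0.0109), and with it -0.92 (edgeR adjusted P = 0.00892).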

How the results depend on the processing

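Of 970 recomputed log2FC values of the 10 genes, 909 kept their direction and their side of the threshold, 17 lost and 4 gained the call, and 40 changed sign, none of them a called value. In KO_PBS vs WT_PBS between 3 and 5 of the 10 genes were DEGs in the 15 settings. Mylk4 lost its call with library totals only (adjusted P = 0.0648), no filter (0.142), the replicate block (0.0644) and without WT_PBS replicate 2 (0.131), 3 (0.0841) or 4 (0.105) or KO_PBS replicate 1 (0.142), 2 (0.0778), 3 (0.0776) or 4 (0.0610). In KO_ASO vs KO_PBS the count was 0 with no filter (Mylk2 adjusted P = 0.0658) and with the compared groups only (0.0688), and 0 to 1 when 1 replicate was left out, Mylk2 losing its call without replicate 1 (0.0946) or 4 (0.0705) of KO_PBS and without replicate 1 (0.0891), 2 (0.0610) or 3 (0.0705) of KO_ASO. In KO_ASO vs WT_PBS DESeq2 called 1 gene, Myl4 (adjusted P = 0.000485). The cause of these changes was not tested, beyond the fewer samples and the change in the genes tested. Whether replicate numbers pair the samples was not settled. No source states a shared litter or batch, same-number correlations ran from -0.08 to 0.44 and in no comparison were all over 0.1, but as a hint from the data all 8 samples of WT_ASO vs WT_PBS matched their own number best, as did 6 of 8 in KO_PBS vs WT_PBS and in KO_ASO vs WT_ASO, 4 in KO_ASO vs KO_PBS and 3 in KO_ASO vs WT_PBS. The block was therefore kept as an alternative. The replicate block left 4, 1, 0, 0, 0 and 0 genes called over the 6 comparisons, with Mybpc2 (adjusted P = 0.0376) in place of Mylk4.

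None of the values that changed sign was a DEG, but those of Myl2 were not all small, since without KO_ASO replicate 1 its log2FC of 1.24 in KO_ASO vs WT_ASO turned to -0.10. With library totals only, Mylpf gave 0.091 in KO_PBS vs WT_PBS, Myl1 -0.029 in WT_ASO vs WT_PBS, Mylk2 0.045 in KO_ASO vs WT_PBS and Myl2 -0.048 in the interaction. With limma-voom, Myl1 gave -0.042 in WT_ASO vs WT_PBS, Mylk2 0.10 in KO_ASO vs WT_PBS and Myl2 -0.73 in the interaction, and with the replicate block Myl2 gave -0.026 there. When 1 replicate was left out, Mylpf ranged from -0.12 to 0.060 between KO_PBS and WT_PBS. In KO_ASO vs KO_PBS the range was -0.77 to 1.40 for Myl2 and -0.35 to 0.019 for Myl4. In WT_ASO vs WT_PBS it was -0.10 to 0.15 for Myl1, -0.33 to 1.16 for Myl2, -0.079 to 0.17 for Mybpc1 and -0.31 to 0.25 for Mylk4. In KO_ASO vs WT_PBS it was -0.014 to 0.17 for Mylpf and -0.13 to 0.16 for Mylk2. In KO_ASO vs WT_ASO it was -0.10 to 2.07 for Myl2, -0.044 to 0.21 for Mybpc1 and -0.54 to 0.019 for Mylk4, and in the interaction -1.28 to 0.90 for Myl2 and -0.079 to 0.33 for Mybpc2. Of the related genes and markers, Tnni2 lost its call in KO_PBS vs WT_PBS in 4 of 8 fits without 1 replicate (adjusted P up to 0.0835), and in KO_ASO vs KO_PBS Calm3 did in 6 (up to 0.150), Tpm1 in 6 (up to 0.146), Dcn in 5 (up to 0.130) and Myh8 in 3 (up to 0.0828). The lowest count of any of the 10 genes in a library was 28 (Myl2), and counting error was not separated from the spread between mice. For Mybph, leaving out 1 replicate gave -2.08 to -0.98 in KO_ASO vs KO_PBS, 1.31 to 2.41 in KO_ASO vs WT_PBS, 0.39 to 1.498 in KO_ASO vs WT_ASO and -3.00 to -1.90 in the interaction. For Myl2 it gave 0.34 to 1.83 in KO_PBS vs WT_PBS and 0.40 to 2.39 in KO_ASO vs WT_PBS.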
